A study of Homo sapiens with 8 samples.

Results

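Promoters of 9 genes, ZSCAN31, NME5, HLF, KLF4, MYOD1, CELF3, CHI3L1, GASK1B and FAXDC2, were examined in lists of H3K4me3 peaks from U2OS cells, a human osteosarcoma line. They were chosen by the peak calls themselves. Around each 5′ end, a peak reaches into the 1 kb on either side in 3 of 3 wild-type (WT) lists and in 0 of 3 lists from cells in which ZBTB48 was knocked out (KO). ZBTB48 is a zinc finger factor known from telomeric repeats and from promoters. Of 20033 protein-coding promoters, 21 (0.105%) had these calls and 4 (0.02%) had the reverse, and the 9 genes were picked among the 21. The difference in calls between genotypes is therefore the selection itself and is given below as a description, with no test.

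The series held 8 samples. The H3K4me3 ChIP-seq libraries came from 3 WT clones and 3 ZBTB48 KO clones, each library from its own clone. All cells, WT and KO alike, received interferon gamma (IFNγ) at 250 U/ml for 24 h, and no untreated library was present, so neither the effect of IFNγ nor the state before it can be read from these lists. The other 2 samples were inputs of WT cells, which were not analysed here. A clone differs from another clone by more than the targeted gene, so the spread between the 3 libraries of a genotype includes differences between clones.

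H3K4me3, the trimethylation of lysine 4 of histone H3, sits on nucleosomes around the 5′ ends of active and poised genes. It is laid down mainly by the SET1 and MLL methyltransferase complexes. Their CXXC-domain subunits bind unmethylated CpG, and promoters rich in CpG carry broad H3K4me3 in most cell types, whereas promoters poor in CpG carry it mostly where the gene is used. The 9 genes are not members of 1 known pathway. ZSCAN31, HLF, KLF4 and MYOD1 encode DNA-binding transcription factors, and the other 5 encode an axonemal NME protein, an RNA-binding protein, a secreted glycoprotein, a Golgi membrane protein and a predicted hydroxylase of lipid metabolism.

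A pair of list kinds could be told apart, and the kind of higher enrichment held WT lists only. The median fold enrichment of a peak over local background was 13.4 and 14.0 in WT replicates 1 and 2, 4.19 in WT replicate 3, and 4.32, 4.60 and 4.65 in KO replicates 1 to 3. The median width was 2297 and 2353 bp in the first pair and 1275 to 1487 bp in the other 4 lists. The number of peaks was between 21712 and 26370, and 66.4 to 67.8% of all promoters were called in each list. Differences between means of the WT and KO lists thus include this difference in kind. WT replicate 3 against the 3 KO lists is the comparison within 1 kind, and its values are given beside the results.

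The label of the group calls these promoters outside the MHC. For 8 of the 9 this held on a window of chromosome 6 from 25 to 34 Mb. ZSCAN31 lies inside that window, in the SCAN and zinc finger gene cluster of the extended MHC, and its 5′ end is 1387 kb from that of HLA-F and 4104 kb from that of HLA-DRA.

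At 6 of the 9 promoters the KO lists held no peak in the 3 kb on either side of the 5′ end. DNA upstream of these 6 promoters is shown for its base composition. Each stretch is 200 bases of GRCh38, written 5′ to 3′ on the strand of the gene, upstream of the most upstream annotated 5′ end of the gene nearby and free of annotated exons. The stretches are chr6:28337031-28337230 (minus strand, 883 to 1082 bp upstream of the ZSCAN31 5′ end, moved there to avoid an exon of another transcript), chr5:138139444-138139643 (NME5, minus), chr17:55264760-55264959 (HLF, plus), chr1:151716804-151717003 (CELF3, minus), chr1:203186705-203186904 (CHI3L1, minus) and chr5:154850614-154850813 (FAXDC2, minus). Capitals mark GGGCGG, the GC box, and CCAAT, on either strand.
ZSCAN31: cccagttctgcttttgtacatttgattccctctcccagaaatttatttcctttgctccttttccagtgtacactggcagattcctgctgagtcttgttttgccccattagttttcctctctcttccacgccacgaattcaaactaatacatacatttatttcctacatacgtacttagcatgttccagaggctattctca
NME5: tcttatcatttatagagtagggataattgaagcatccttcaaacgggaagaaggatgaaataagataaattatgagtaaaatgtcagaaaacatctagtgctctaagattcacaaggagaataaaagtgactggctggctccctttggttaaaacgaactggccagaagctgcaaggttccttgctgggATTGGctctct
HLF: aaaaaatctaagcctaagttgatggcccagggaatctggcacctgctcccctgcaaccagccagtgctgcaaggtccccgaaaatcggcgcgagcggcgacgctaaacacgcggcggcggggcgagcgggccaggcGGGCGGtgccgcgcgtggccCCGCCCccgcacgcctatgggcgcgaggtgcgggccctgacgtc
CELF3: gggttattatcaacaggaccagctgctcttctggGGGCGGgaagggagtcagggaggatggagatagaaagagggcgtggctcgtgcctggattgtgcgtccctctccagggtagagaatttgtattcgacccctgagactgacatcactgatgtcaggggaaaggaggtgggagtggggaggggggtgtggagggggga
CHI3L1: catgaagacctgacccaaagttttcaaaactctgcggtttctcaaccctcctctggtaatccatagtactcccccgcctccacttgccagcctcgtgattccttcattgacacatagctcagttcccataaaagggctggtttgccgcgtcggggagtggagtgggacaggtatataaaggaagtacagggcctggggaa
FAXDC2: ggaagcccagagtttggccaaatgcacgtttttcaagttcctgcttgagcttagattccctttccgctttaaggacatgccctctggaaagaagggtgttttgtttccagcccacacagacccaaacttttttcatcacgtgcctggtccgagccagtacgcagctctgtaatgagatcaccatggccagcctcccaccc
The HLF stretch holds 25 CpG and the other 5 hold 2 to 6. At ZSCAN31 the moved stretch, with 3 CpG and 41% G and C, does not stand for the promoter. The 1001 bp centred on the ZSCAN31 5′ end held 55.0% G and C and 4.80 CpG per 100 bp. The 200-base stretches also differ in overall composition, from 39.5% G and C at NME5 to 70% at HLF.

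Motifs were looked for on both strands in the 200 bases before the most upstream nearby 5′ end of all 20033 promoters, with no shift for exons. GGGCGG stood in 3 of the 9 windows, at HLF, MYOD1 and CELF3, and in 49.8% of all promoters. CCAAT stood in 3 of the 9, at NME5, MYOD1 and GASK1B, and in 30.1% of all. The telomeric repeat TTAGGG was in 0 of the 9 windows and 6.23% of all promoters. TTCNNNGAA, the palindrome of the STAT factors that IFNγ activates, was in 0 of the 9 and in 4.59% of all. These matches describe the letters of the window and are not binding sites.

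**Figure D1:**
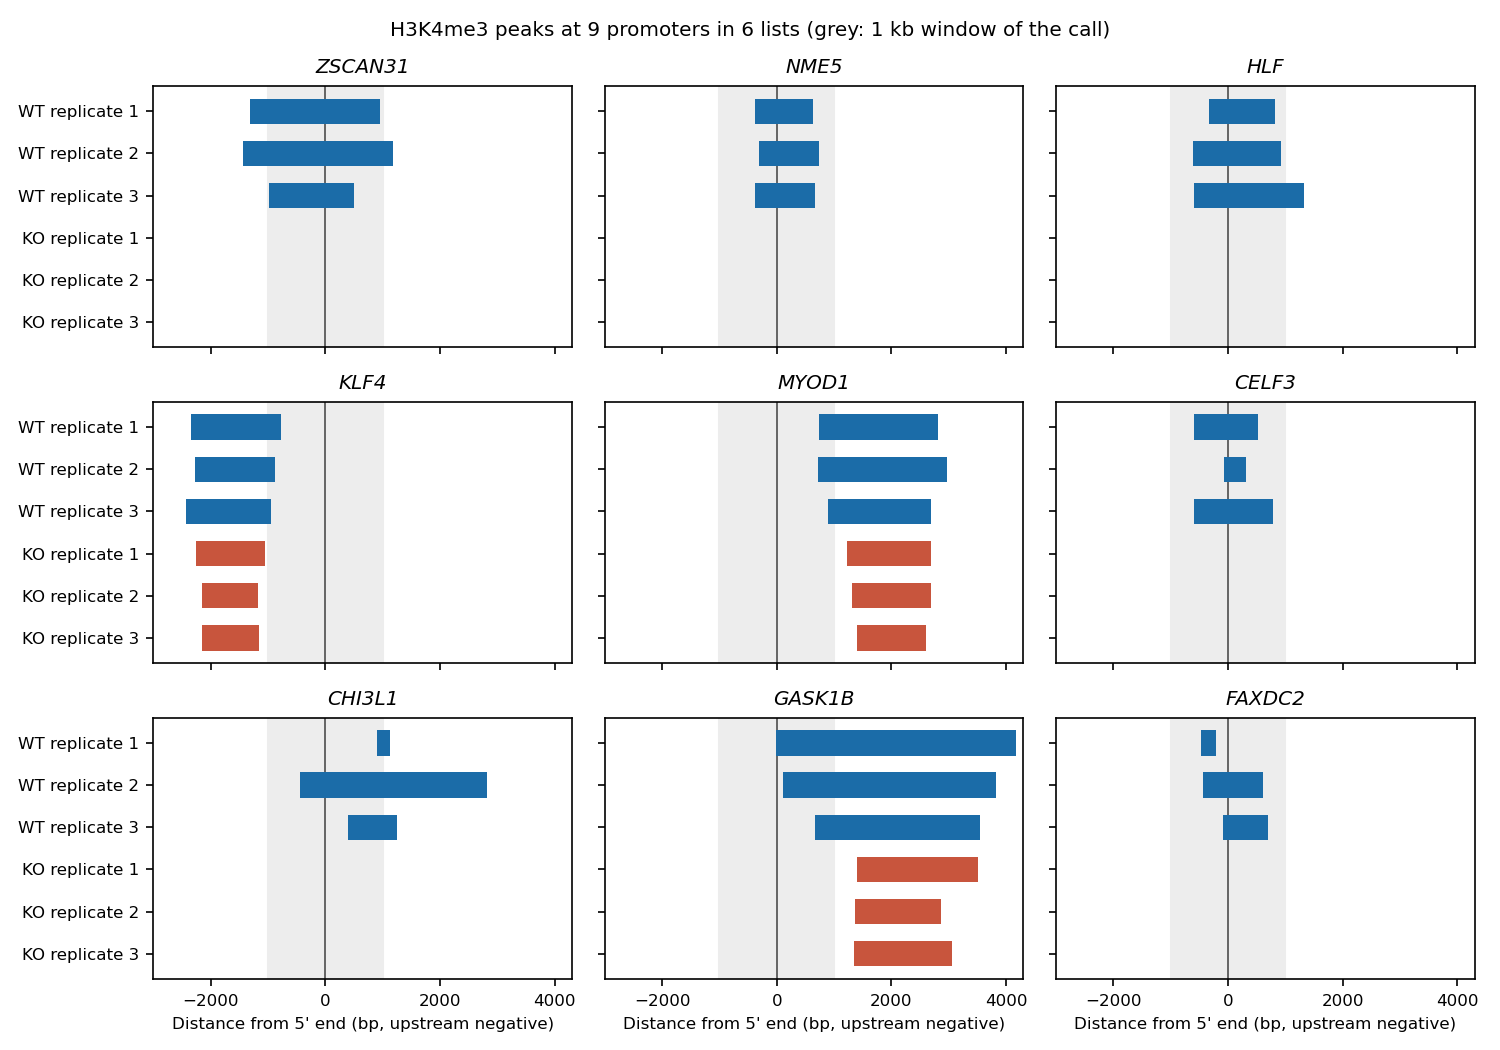
Positions of the H3K4me3 peaks of each list (rows, WT in blue and KO in red) along the distance in bp from the 5′ end of each gene, upstream to the left, with the 1 kb window of the call in grey. KO bars are absent from 6 panels and lie inside the WT bars, outside the grey window, in the panels of KLF4, MYOD1 and GASK1B.

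ZSCAN31, a zinc finger gene with a SCAN dimerisation domain (ENSG00000235109, minus strand, 5′ end at position 28336148 of chromosome 6), had the longest covered stretch on average among the 6 promoters with no KO peak. The peak ran from 1319 bp upstream to 957 bp downstream in WT replicate 1, from 1441 bp upstream to 1181 bp downstream in replicate 2 and from 991 bp upstream to 491 bp downstream in replicate 3. Within their own lists these peaks stood at percentiles 33.4, 38.0 and 61.0 of fold enrichment. All 3 covered the 5′ end, and 1483 bp lay under every WT peak, of which 991 bp were upstream of the transcript, 67 bp in exon 1 and 425 bp in the first intron. Covered length, the bp under peaks in the 3 kb up- and downstream of the 5′ end, was 2128 ± 584 (SD, n = 3) for WT against 0 for each KO library. The nearest KO peak was 13419 bp upstream, at the neighbouring ZKSCAN3 promoter. ZSCAN31 has 13 annotated 5′ ends. The 6 within 697 bp of the main end had the same calls as the main end, whereas the 5 distal ends, 17917 to 20123 bp upstream, were called in all 6 lists. The missing KO calls were thus at the proximal ends of ZSCAN31 and not at its distal ones.

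NME5, which encodes a nucleoside diphosphate kinase relative found in the axoneme of cilia and sperm (ENSG00000112981, minus strand, position 138139428 of chromosome 5), had the most alike WT peaks. They were 1016, 1041 and 1036 bp wide in WT replicates 1 to 3, a covered length of 1031 ± 13.2 bp (SD, n = 3). They stood 311 to 386 bp upstream at one edge and 629 to 729 bp downstream at the other. Their percentiles of fold enrichment were 41.6, 30.4 and 96.0, and those of −log10 q were 38.5, 33.3 and 47.1. Position was thus nearly constant between the WT clones, while WT replicate 3 ranked highest by both columns and far from the others by fold enrichment only. The nearest KO peaks began 5640 to 5794 bp downstream.

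HLF, a PAR bZIP transcription factor of the hepatic and circadian programs (ENSG00000108924, plus strand, position 55264960 of chromosome 17), carried peaks 1140, 1537 and 1924 bp wide. Here WT replicate 3 had the widest peak, unlike the list as a whole. The peaks began 324 to 614 bp upstream, ended 815 to 1325 bp downstream and stood at percentiles 24.9, 20.8 and 34.3. The stretch shared by the 3 peaks, 1140 bp, covered all 640 bp of exon 1. Covered length averaged 1534 ± 392 bp (SD, n = 3) over the WT clones and 0 bp over the KO clones, whose nearest peak lay 25727 bp upstream. Of the 11 annotated 5′ ends of HLF, the 3 within 1262 bp of the main end had WT calls alone and the other 8 were called in no list.

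CELF3, a member of the CELF family of RNA-binding splicing regulators used mostly in brain (ENSG00000159409, minus strand, position 151716803 of chromosome 1), had peaks of 1131, 385 and 1382 bp. In WT replicate 2 the peak reached 64 bp upstream and 320 bp downstream, and in the other 2 WT lists it reached 602 and 598 bp upstream. All 3 covered the 5′ end. Their percentiles were low, 19.3, 13.0 and 24.6. Covered length averaged 966 ± 519 bp (SD, n = 3) in WT against 0 bp in each KO library. The nearest KO peaks, 4183 to 4390 bp upstream, were at the RIIAD1 promoter, which all 6 lists called.

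The 2 remaining promoters of this kind had WT peaks whose places overlapped little. At CHI3L1, the gene of the secreted glycoprotein YKL-40 (ENSG00000133048, minus strand, position 203186704 of chromosome 1), the peak of WT replicate 1 spanned 895 to 1119 bp downstream, a width of 225 bp. In replicate 2 it ran from 439 bp upstream to 2817 bp downstream, and in replicate 3 from 387 to 1245 bp downstream. The 225 bp shared by all 3 are intronic, and 1 of the 3 peaks covered the 5′ end. The percentiles were 2.70, 12.9 and 20.9, and the −log10 q of replicate 1 was 1.42, near the lowest value of that list, 1.02, so CHI3L1 had the weakest call of the 9. Its covered length was 1447 ± 1599 bp (SD, n = 3), a spread larger than the mean, against 0 bp in KO.

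At FAXDC2, a member of the fatty acid hydroxylase superfamily (ENSG00000170271, minus strand, position 154850603 of chromosome 5), the WT peaks were 256, 1037 and 800 bp wide, at percentiles 11.6, 16.6 and 19.6. The peak of replicate 1 ended 212 bp upstream of the 5′ end and that of replicate 3 began 96 bp upstream, so 0 bp lay under all 3 peaks. Covered length averaged 698 ± 400 bp (SD, n = 3) over the WT clones and 0 bp over the KO clones. The KO lists did carry the peak shared with CNOT8, which ended 6335 to 6590 bp upstream and spans another FAXDC2 5′ end, 8649 bp upstream. That end lay under a peak in all 6 lists. As at ZSCAN31, a distal end of the same gene kept its H3K4me3 call in KO.

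**Figure D2:**
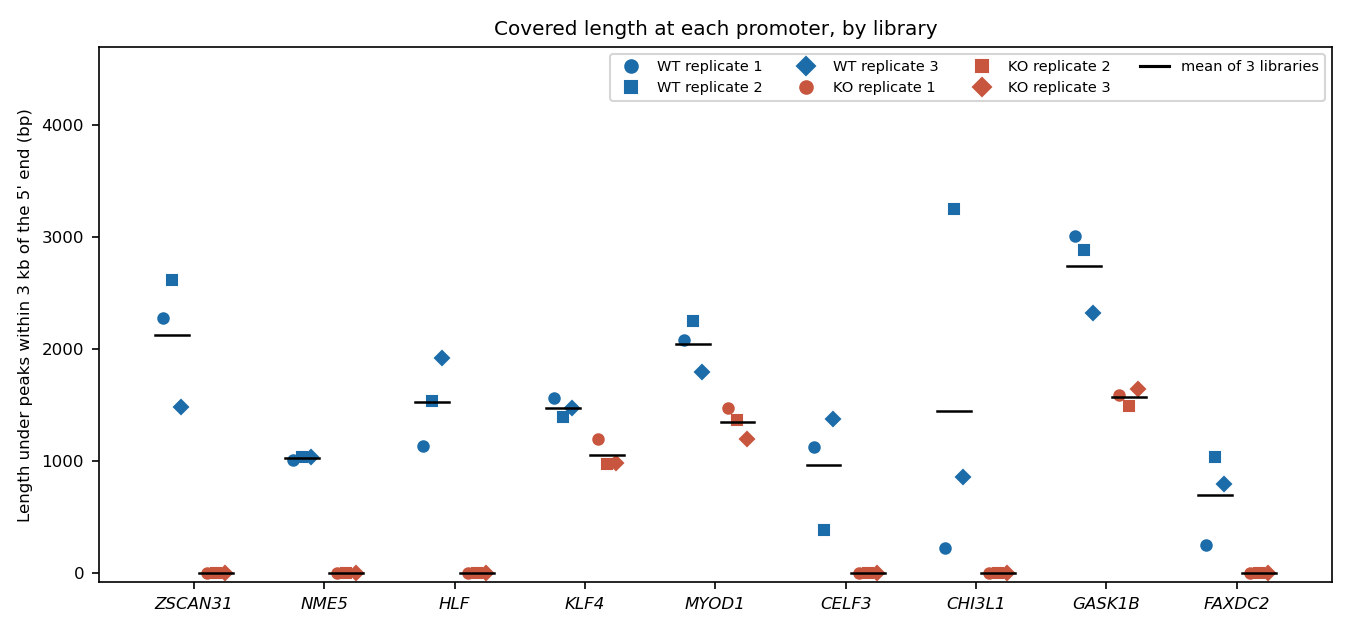
Length under peaks within 3 kb of the 5′ end, in bp, for each library (symbols) and the mean of 3 libraries (black bars), WT in blue and KO in red. The KO libraries stand at 0 bp at 6 promoters and between 974 and 1647 bp at KLF4, MYOD1 and GASK1B.

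KLF4, MYOD1 and GASK1B kept peaks in all 3 KO lists. These peaks were shorter than those of WT, and 100% of their length lay inside every WT peak. The edge toward the 5′ end stood farther off, so that the KO peak fell outside the window of 1 kb. None of these 3 promoters is without H3K4me3 calls in KO within 3 kb, and the missing call rests on the position of 1 edge.

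KLF4, a Krüppel-like factor of epithelial differentiation and reprogramming (ENSG00000136826, minus strand, position 107489769 of chromosome 9), lay nearest to that limit. Its peaks never covered the 5′ end. They ended 778, 871 and 944 bp upstream in WT replicates 1 to 3 and 1058, 1183 and 1163 bp upstream in KO replicates 1 to 3. The far edges were 2265 to 2423 bp upstream in WT and 2147 to 2259 bp upstream in KO. The groups did not overlap at either edge, but the gap at the near edge was 114 bp, and the nearest KO edge was 58 bp outside the window. WT replicate 3 overlapped the window by 57 bp. Covered length averaged 1481 ± 87.0 bp (SD, n = 3) over the WT clones and 1054 ± 129 bp (SD, n = 3) over the KO clones, and at 1480 bp WT replicate 3 exceeded the highest KO value, 1202 bp, by 278 bp. Another KLF4 5′ end, 713 bp upstream, was within 1 kb of a peak in all 6 lists.

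MYOD1, the basic helix-loop-helix regulator of skeletal muscle (ENSG00000129152, plus strand, position 17719571 of chromosome 11), had its peaks downstream of the 5′ end. The 1799 bp shared by the WT peaks held 961 bp of exons 2 and 3, 710 bp of intron and 128 bp outside the transcript. The peaks began 737, 711 and 895 bp downstream in WT and 1217, 1313 and 1393 bp downstream in KO. The widths were 2082, 2258 and 1799 bp in WT and 1477, 1372 and 1204 bp in KO. The near edges were 322 bp apart between the groups at their closest, while at the far edge WT replicate 3 and KO replicate 1 ended at the same place, 2693 bp downstream. By fold enrichment the KO peaks stood at percentiles 75.1 to 78.4 of their lists and the WT peaks at 43.8 to 64.6 of theirs. By −log10 q the percentiles overlapped, at 48.6 to 64.2 in KO and 45.1 to 60.8 in WT. Covered length averaged 2046 ± 232 bp (SD, n = 3) over the WT clones and 1351 ± 138 bp (SD, n = 3) over the KO clones. WT replicate 3, at 1799 bp, exceeded the highest KO value by 322 bp.

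GASK1B, the gene of a Golgi-associated kinase relative (ENSG00000164125, minus strand, position 158173025 of chromosome 4), had the widest peaks of the 9, with 4175, 3704 and 2877 bp in WT and 2106, 1491 and 1700 bp in KO. The near edge was 8 bp upstream in WT replicate 1 and 113 and 673 bp downstream in replicates 2 and 3, against 1354 to 1404 bp downstream in KO. The groups were 681 bp apart. By fold enrichment WT replicate 3 had the lowest percentile here, 11.8, and the 3 KO peaks stood at 27.9 to 52.8. By −log10 q it stood at 47.5, inside the KO range of 41.8 to 61.0. Another 5′ end of GASK1B, 2647 bp downstream, lay under a peak in all 6 lists, so the stretch without KO calls was on the side of the MANE Select end. Within 3 kb, covered length averaged 2742 ± 363 bp (SD, n = 3) over the WT clones and 1578 ± 79.7 bp (SD, n = 3) over the KO clones, and at 2328 bp WT replicate 3 exceeded the highest KO value by 681 bp.

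**Figure D3:**
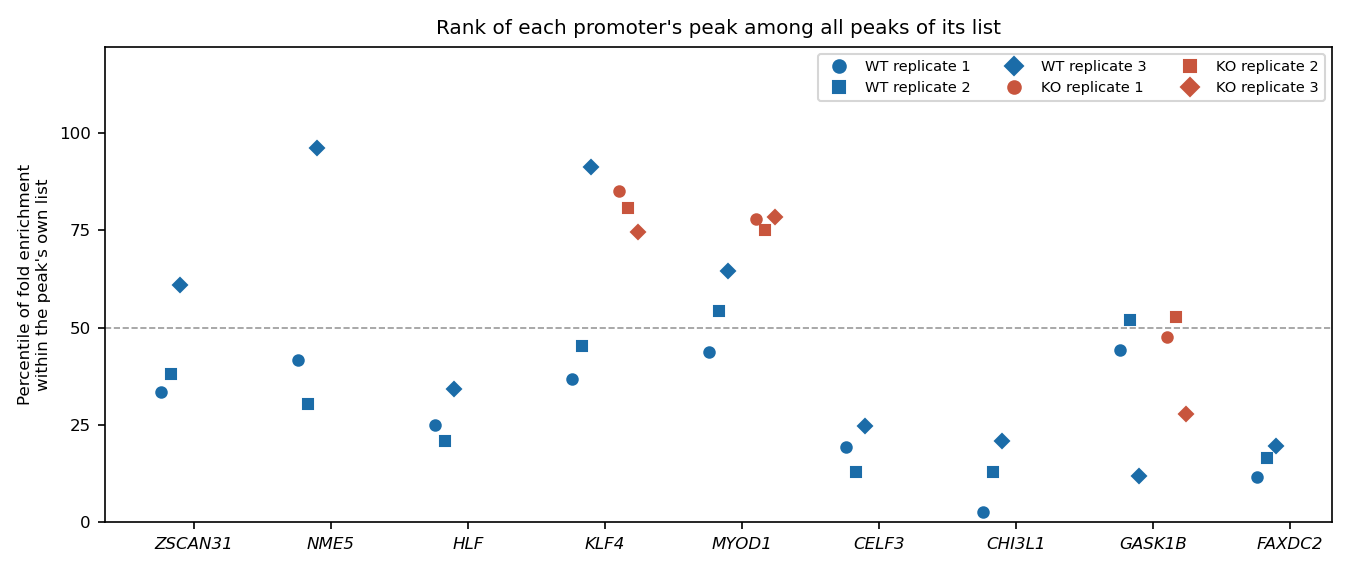
Percentile of fold enrichment of each promoter's peak among all peaks of its own list (100 is the strongest), for WT (blue) and KO (red) libraries, with the middle of the list dashed. WT peaks at CELF3, CHI3L1 and FAXDC2 lie between 2.70 and 24.6, and the KO peaks that remain at KLF4 and MYOD1 lie between 74.6 and 85.2.

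The order of the 9 promoters by rank depended in part on the column. Counting the lowest of the 3 WT percentiles of fold enrichment, MYOD1 stood first at 43.8, followed by KLF4 at 36.8, ZSCAN31 at 33.4 and NME5 at 30.4. HLF had 20.8, CELF3 13.0, GASK1B 11.8, FAXDC2 11.6 and CHI3L1 2.70. By −log10 q, MYOD1 at 45.1 and CHI3L1 at 1.52 were again first and last, while GASK1B, at 42.3, moved to the second place. By fold enrichment no WT peak of HLF, CELF3, CHI3L1 or FAXDC2 reached the middle of its list, where their highest percentiles were 34.3, 24.6, 20.9 and 19.6. A percentile is relative to its own list. Among the WT lists, that of fold enrichment was highest in replicate 3 at every promoter but GASK1B, where it was lowest. By −log10 q, WT replicate 3 was highest at NME5, HLF, KLF4, MYOD1 and CELF3. WT replicate 2 was highest at ZSCAN31, CHI3L1, GASK1B and FAXDC2. ZSCAN31, for instance, stood at 33.6, 36.5 and 35.6 by −log10 q in WT replicates 1 to 3.

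Over the 9 promoters the mean difference in covered length was 1121 bp and the median 1031 bp. These values were close to the general difference between the lists. Over the 13399 promoters covered in all 6 lists the median difference, WT minus KO, was 998 bp. The covered lengths were unlike, however. Those promoters had medians of 1979 to 3330 bp in the WT lists and 1670 to 1940 bp in the KO lists. The 9 averaged 1412 to 1825 bp in the WT lists and 426 to 475 bp in the KO lists. At 6 of the 9 the difference was the whole WT length. Covered length separated the genotypes with every WT library above every KO library at 50.8% of the 14422 promoters with any peak within 3 kb, and with every KO library above at 0.111%. All 9 promoters were separated with WT higher, in a contrast that also chose them. Within the 1 kind of list, WT replicate 3 exceeded the highest KO library at 9 of 9 promoters and at 53.8% of all promoters with a peak. The median of this excess over promoters covered in all 6 lists was 19 bp. At the 9 promoters it ran from 278 bp at KLF4 to 1924 bp at HLF, again in the contrast that chose them. No KO list called 125 (0.925%) of the 13518 promoters that WT replicate 3 called.

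Just outside the selection, 63 promoters were called in 3 WT lists and 1 KO list. The shortest KO overlaps with the window were 12 bp at LYPD3, 29 bp at LNX1 and 32 bp at ANKRD53, each from KO replicate 1. Like KLF4, these 3 had peaks within 3 kb in every KO list. Of the 21 promoters inside the selection, 13 had no KO peak within 3 kb, 6 of them among the 9. The other promoters with the same calls outside the chromosome 6 window were MAGIX, MST1, RNF123, ARHGDIG, CIITA, CCL20 and RDH5. MST1 and RNF123 share 1 peak of 304 to 360 bp between them, without a KO peak within 3 kb.

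CpG density was a property that the calls did not use. In the 1001 bp centred on the 5′ end, the 9 promoters held 1.10 to 11.9 CpG per 100 bp, with a median of 3.20, against 7.89 over the 13206 promoters called in 3 of 3 WT lists and 1.70 over the 6077 called in no list. No peak of KLF4 or MYOD1 reached this window, and at GASK1B only those of WT replicates 1 and 2 did. At CHI3L1 the peak of WT replicate 1 lay outside the window, while those of WT replicates 2 and 3 reached it. The stretch shared by the KO peaks held 3.85 CpG per 100 bp at GASK1B and 6.64 at MYOD1, and that of KLF4 was not measured. Among promoters called in WT, FAXDC2 stood at percentile 0.697 of CpG density, GASK1B at 1.03, CHI3L1 at 1.22, CELF3 at 3.81, NME5 at 4.60 and ZSCAN31 at 11.2. HLF was at 42.1, MYOD1 at 55.2 and KLF4 at 89.3. So 7 of the 9 were below the median of WT-called promoters, as were 11 of the 12 other promoters with the same calls, whose median was 1.998. Those 12 are not all separate stretches of DNA. The windows of MST1 and RNF123 nearly coincide, as do those of HLA-DMA and ENSG00000248993. No test was made, because the width and rank of the peaks, on which the calls depend, were not matched between these sets.

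**Figure D4:**
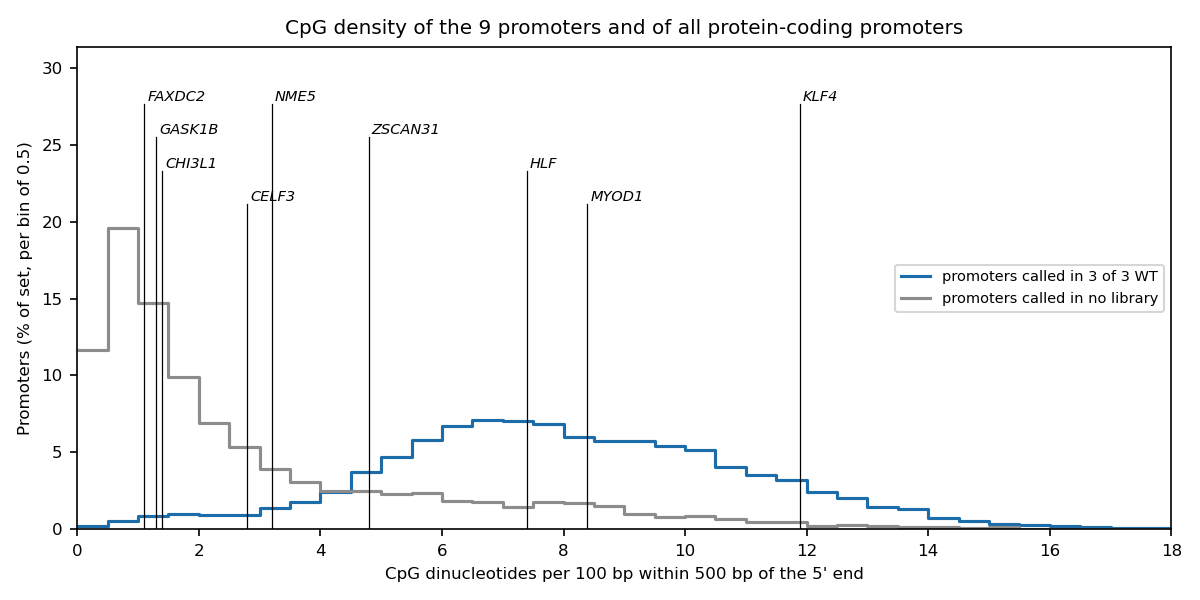
Share of promoters, in percent per bin of 0.5, by CpG dinucleotides per 100 bp in the 1001 bp around the 5′ end, for promoters called in 3 of 3 WT lists (blue) and in no list (grey), with black lines at the 9 promoters. FAXDC2, GASK1B and CHI3L1, at 1.10 to 1.40, lie in a bin with 14.7% of the uncalled promoters, and KLF4, at 11.9, lies in the upper tail of the WT-called ones.

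Among related genes, 59 family and cluster relatives of the 9 were examined. They were listed by family or cluster and not by their calls, though with earlier results of these data known. Of these, 45, 45 and 46 were called in WT replicates 1 to 3 and 46, 45 and 45 in KO replicates 1 to 3. None was called in 3 WT and 0 KO lists (0 of 59, against 0.105% of all promoters), 45 were called in all 6 lists and 13 in none. With so low a general share, 0 of 59 does not set the relatives apart from other promoters. All 10 SCAN and zinc finger genes of the ZSCAN31 cluster were called in all 6 lists, as were the 3 relatives of HLF, and 7 of 8 NME genes. The myogenic factors MYF5, MYF6 and MYOG were called in no list and had no peak within 3 kb, so MYOD1 was the sole marked gene of its family. CHI3L2, CHIT1, CHIA and OVGP1 of the CHI3L1 family were likewise without peaks, as were NME8, KLF17, CELF2, FAM20A and CH25H. KLF1, the erythroid factor, was called in no list but had 837 and 684 bp under peaks within 3 kb in WT replicates 1 and 2 and 0 bp in the other 4 lists.

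In covered length, 25 of the 47 relatives with any peak had every WT library above every KO library and 0 had the reverse. That share was close to the 50.8% of all promoters. Among these 25, the largest differences between medians were at KLF10, KLF3, NME3, ZSCAN12, KLF5 and FAM20C. Larger differences at NME4 and NME7, 3205 and 2727 bp, came with groups that overlapped. KLF10, a TGFβ-induced Krüppel-like factor, had 5726, 5361 and 3495 bp in WT and 2726, 2632 and 2944 bp in KO. FAM20C, the Golgi casein kinase, had 4391, 5394 and 3594 bp in WT and 2552, 2357 and 2511 bp in KO. Each of the 6 gave a two-sided exact permutation p of 0.1, the smallest that 3 libraries against 3 allow, so none can pass a threshold of 0.05. WT replicate 3 exceeded the highest KO library by 1042 bp at FAM20C, 551 bp at KLF10 and 428 bp at ZSCAN12, but by 149, 88 and 31 bp at KLF3, KLF5 and NME3.

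**Figure D5:**
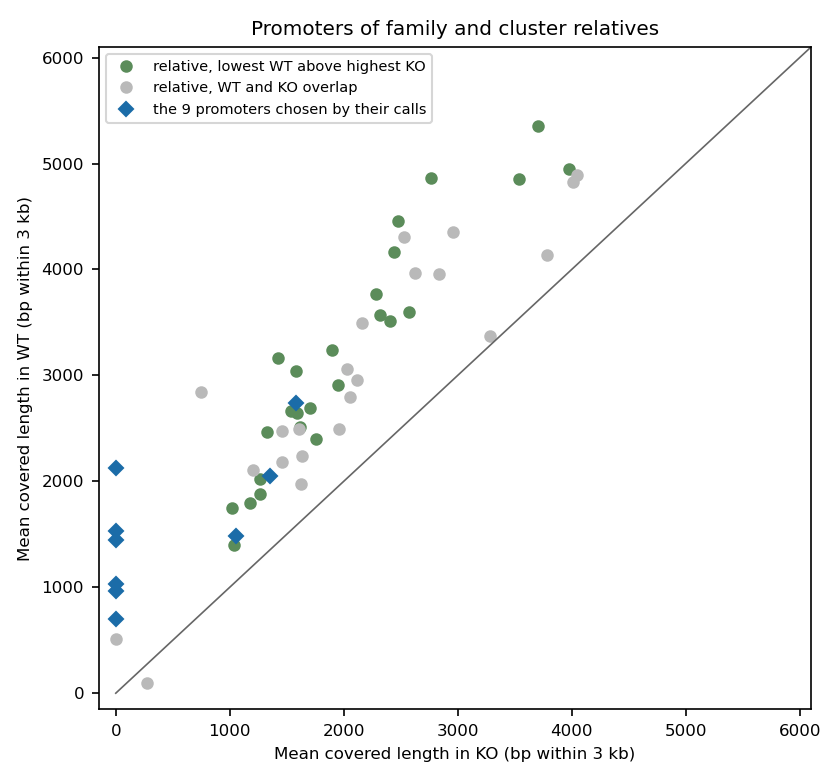
Mean covered length within 3 kb in WT (vertical) against KO (horizontal), in bp, for the 47 relatives with a peak and the 9 promoters (blue diamonds), with the line of equal length. The 9 lie at or below 2742 bp in WT, 6 of them at 0 bp in KO, and 25 relatives (green) have every WT library above every KO library.

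None of the genes next door shared the calls of the 9. Of 11 nearest promoters within 100 kb on either side, 8 were called in all 6 lists and 3 (WNT8A, CHIT1 and MYBPH) in none. The calls of the 9 were found at 0 of the 11, against 0.105% of all promoters. In covered length 5 of the 8 with a peak were separated with WT higher, near the 50.8% of all promoters with a peak. KCNC1, the potassium channel gene 15210 bp downstream of MYOD1, had 2557, 2871 and 2668 bp in WT and 1665, 1571 and 1378 bp in KO, with WT replicate 3 exceeding the highest KO value by 1003 bp. RIIAD1, 4719 bp upstream of CELF3, had 1131, 1301 and 877 bp in WT and 1121, 931 and 807 bp in KO, which overlap. The peak nearest to CELF3 was thus of similar length in both genotypes. ZKSCAN3, CNOT8, BRD8, PGBD1, TMEM144 and LARP1 were the other neighbours called in all 6 lists.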

How the data were processed

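H3K4me3 ChIP-seq libraries of U2OS clones, 3 WT and 3 ZBTB48 KO, took genotype and replicate number from their labels. Per the study's methods and the submitters' processing notes, the authors used Trimmomatic for adapters and Bowtie2 2.3.5.1 for alignment to GRCh38. They kept uniquely mapped reads without duplicates, and MACS2 2.1.1.2 gave broad peaks for each library. Whether an input was given for each list is not stated in the sources used here. The deposited lists give each peak's fold enrichment, a ratio over local background, and deposited −log10 p and −log10 q values. They hold no counts. The study's methods give a range of reads per ChIP-seq sample but not the depth of each library, so no counting interval was computed. Where a list has no peak, the mark was not called at its depth and threshold, and it may still be present. No 2 lists shared more than 2 identical peaks.

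Peaks on the autosomes, X and Y were placed 1-based on GRCh38, against GENCODE release 44. A promoter was the MANE Select (otherwise canonical) 5′ end of a protein-coding gene. It was called where a peak reached within 1 kb of that end. Covered length was the part of the 3 kb on either side, in bp, that peaks took up. Fold enrichment and −log10 q were ranked as percentiles within their list. Relatives were compared by an exact permutation test, two-sided, over all 20 ways to assign 3 of the 6 libraries. Each p-value gives the place of the observed WT and KO difference among these assignments, with each clone as a single library. The lists of higher enrichment were all WT, so the p-values do not separate the kind of list from clone or genotype.

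The 9 genes, the relatives and the lists were chosen with earlier results of these data known. The genes named were the 9, up to 6 separated relatives with the largest difference of medians plus any called in 0 KO, the nearest promoter on each side within 100 kb, other promoters with the same calls outside chromosome 6 from 25 to 34 Mb, and 3 promoters just outside the selection. Overlap, calls and the exact test were tested on simulated data. Alternatives required −log10 q of 3 or more or fold enrichment of 4 or more, and used equal numbers of peaks, 500 bp of overlap, exchanged windows, any transcript's 5′ end, calls in at least 2 of 3 WT and at most 1 of 3 KO lists, each library left out, WT replicate 3 alone against KO, and the replicate number as a block. Work was done in Python 3.11.15 with numpy 2.4.6 and pandas 2.3.3, and figures with matplotlib 3.10.9.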

Additional observations from a re-analysis of the deposited data

How the results depend on the processing

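Leaving out a library, or WT replicate 3 alone, cannot change the calls of the 9, since these chose them. The 9 calls fell to 4 (ZSCAN31, NME5, KLF4 and MYOD1) with a fold enrichment of at least 4, to 3 (ZSCAN31, NME5 and HLF) with at least 500 bp of overlap, and to 5 with any transcript's 5′ end. CHI3L1 and FAXDC2 lost theirs with −log10 q of at least 3 and with equal numbers of peaks, which left 7 each. Exchanged windows left 6 (without KLF4, MYOD1 and GASK1B), which repeats the count of promoters with no KO peak within 3 kb. The fold enrichment threshold removes more peaks from the 4 lists of lower enrichment, and any transcript adds the distal ends. The mean difference in covered length over the 9, 1121 bp, became 679 bp with a fold enrichment of at least 4 and 861 bp with exchanged windows. Promoters with a KO peak, 3 of the 9, became 6 with any transcript. With exchanged windows they became 0, which the selection fixed, since it allowed no KO peak within 1 kb. The 21 promoters with the same calls became 252 with calls in at least 2 of 3 WT and at most 1 of 3 KO lists and 125 with WT replicate 3 alone, and 22 to 99 with 1 library left out, where 99 was without WT replicate 3 and 79 without KO replicate 1. The mean difference in relatives called, 0, became 12.3 with a fold enrichment of at least 4 and 0.667 both with exchanged windows and with WT replicate 3 alone, and lay between -0.333 and 0.333 with 1 library left out. The 25 separated relatives became 15 with a fold enrichment of at least 4 and 25 to 45 with 1 library left out, 45 being without WT replicate 3. Beyond what these constructions show, the cause was not tested.

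Replicate numbers did not pair the libraries, since same-numbered deviations correlated at -0.0095, 0.017 and 0.093. With the replicate block, 39 relatives had WT above KO in all 3 same-numbered pairs, as had 85.6% of all promoters with a peak, and the smallest p of that test is 0.25. Of 117 recomputed differences at single promoters over 13 alternatives, 12 moved by more than the spread between libraries and 3 became 0. Their sign is no check, since the selection fixed it for the most part. The alternative of 500 bp of overlap does not alter covered length, so its differences could not move. CHI3L1 fell from 1447 to 0 bp with a fold enrichment of at least 4, yet was not counted as moved. Its WT spread was 1599 bp (SD, n = 3). The lists carry no depth, so a missing KO call is not shown to be a missing mark, and 3 clones a genotype limit the rest.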
